A study of Mus musculus with 12 samples.

Results

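The 44 collagen chain genes of the mouse were followed in brain RNA. They are all rows of the count table whose Ensembl ID carries a symbol of the form Col, a number, a and a number, and they were 44 of the 43629 gene IDs in the table. Their names cover 27 numbered collagen types. Poly(A) RNA from pulverised frozen tissue, described as forebrain in the extraction protocol and as brain in the tissue label, was sequenced in 12 libraries. Mice were 3 months old and had been injected into the cerebral ventricles as newborns. They received either an adeno-associated virus used as a carrier of genes (rAAV), encoding a collagen domain construct, or phosphate-buffered saline (PBS). The groups were collagen domain females, collagen domain males, PBS females and PBS males, with 3 libraries each. According to the title of the series, the domain comes from C1qTNF3, which has a short collagen-like stretch but is no collagen chain and is not among the 44 genes. Strain, genotype and the promoter of the construct are not given in the sources used here. An rAAV lacking the construct was not among the groups, so vector and construct cannot be told apart.

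Collagens are secreted or membrane proteins in which 3 alpha chains wind into a triple helix of repeated glycine-led triplets. Fibrillar chains build the tensile fibres of connective tissue, which in the brain are found mostly in the meninges and around large vessels. Type IV chains form the sheet of the basement membrane under endothelium and other cells, type VI chains form beaded filaments beside it, and fibril-associated chains decorate fibrils. Transmembrane collagens stay anchored in the cell that makes them, and several are made by neurons. The chain genes are therefore spread over fibroblasts, vessel cells, choroid plexus and neurons, and in RNA of whole tissue fewer cells of a type and less RNA per cell cannot be told apart.

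Libraries held 39272127 to 52323985 counted reads. As a check of the treatment labels, C1qtnf3 had 1000 or more reads in 4 of the 6 libraries labelled collagen domain and in 2 of the 6 labelled PBS. Collagen domain female 1 and female 3 held 23 and 8 C1qtnf3 reads, while PBS female 2 and PBS male 1 held 1071 and 2675. Levels of Xist and Ddx3y, a pair of sex-linked genes, went against the sex label in 4 libraries (collagen domain female 1 and male 3, PBS female 2 and male 1). In all, 5 of 12 libraries went against a label. Each direction below is therefore a direction by label, and values are also given for the other 7 libraries (3 collagen domain, 4 PBS). A list of 14 hindbrain and cerebellum genes (13 tested, none at 0 in all libraries) summed to 253 to 568 CPM (read counts scaled to a common library size, here adjusted by TMM) in collagen domain female 2 and male 2 and PBS female 2, female 3 and male 3, against 1.96 to 22.0 CPM in the other 7. These 5 are called the libraries with high hindbrain genes below. The labels do not say that each library came from a separate mouse, so p-values measure the spread between these libraries, which may be technical.

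The regulatory sequence shown first is that of Col4a1 and Col4a2, which start back to back and whose levels went together from library to library (below), and that of Col18a1, the chain with the largest ratio between libraries with high and low hindbrain genes. Windows of 300 bases, 250 before and 50 after a start site, are from RefSeq on GRCm38.p6, whereas the deposited counts name GRCm39, and 35 of the 44 chains had at least 1 window in that table (38 windows in all). The Col4a1 window is chr8:11312777-11313076 on the minus strand and the Col4a2 window is chr8:11312555-11312854 on the plus strand. Their annotated start sites lie 21 bases apart, the windows share 78 bases, and the annotated exons of the pair share 22 bases, where unstranded reads cannot be told apart. Col18a1 has 2 annotated starts on the minus strand, with windows at chr10:77166481-77166780 (the upstream start) and chr10:77113656-77113955 (the downstream start), and the counts are per gene and cannot be assigned to either. Capitals mark matches, on either strand, to CCAAT, to the GC box core GGGCGG or to the TATA box letters TATAAA.
Col4a1: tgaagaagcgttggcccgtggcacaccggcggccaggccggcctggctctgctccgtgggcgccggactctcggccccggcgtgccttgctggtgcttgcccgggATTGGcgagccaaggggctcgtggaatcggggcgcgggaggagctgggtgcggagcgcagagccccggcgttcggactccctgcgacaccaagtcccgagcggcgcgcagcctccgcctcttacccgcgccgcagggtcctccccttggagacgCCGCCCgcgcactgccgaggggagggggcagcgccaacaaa
Col4a2: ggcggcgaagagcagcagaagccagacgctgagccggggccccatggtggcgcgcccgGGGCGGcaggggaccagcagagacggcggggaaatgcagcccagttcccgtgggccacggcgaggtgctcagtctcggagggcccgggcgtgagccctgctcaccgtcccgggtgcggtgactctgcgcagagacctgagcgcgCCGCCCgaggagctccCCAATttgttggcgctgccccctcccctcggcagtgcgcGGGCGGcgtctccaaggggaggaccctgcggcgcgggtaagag
Col18a1 upstream start: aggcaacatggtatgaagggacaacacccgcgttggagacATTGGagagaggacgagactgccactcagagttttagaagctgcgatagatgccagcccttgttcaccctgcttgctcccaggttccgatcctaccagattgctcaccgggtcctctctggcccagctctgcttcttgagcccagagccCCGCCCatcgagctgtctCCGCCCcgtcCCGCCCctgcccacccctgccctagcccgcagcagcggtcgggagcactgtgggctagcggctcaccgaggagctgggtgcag
Col18a1 downstream start: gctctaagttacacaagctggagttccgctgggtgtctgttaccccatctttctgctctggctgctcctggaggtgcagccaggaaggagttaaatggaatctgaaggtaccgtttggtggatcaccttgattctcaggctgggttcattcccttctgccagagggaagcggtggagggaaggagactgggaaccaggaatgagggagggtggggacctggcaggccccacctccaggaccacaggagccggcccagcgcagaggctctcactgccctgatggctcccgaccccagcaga
The shared 78 bases of the Col4a1 and Col4a2 windows hold 1 GGGCGG match and no match to either of the other motifs. Among all 38 chain windows, GGGCGG was found in 23 windows, CCAAT in 13 windows and TATAAA in 5 windows. Among all 32851 windows of the table the shares were 35.7% for GGGCGG, 37.4% for CCAAT and 13.6% for TATAAA, and the median GC content was 59.8% in chain windows against 52.7% in all windows. Neighbouring matches to different motifs can share end bases. A match is a string of letters and not a shown binding site.

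All 44 chain genes had reads in every library, from 8 to 3309 reads per gene and library, and all 44 passed the filter on low counts. A mean of 1 CPM or more was reached by 37 chains and of 10 CPM or more by 13. The 7 below 1 CPM were Col4a4, Col6a6, Col9a1, Col17a1, Col28a1, Col4a3 and Col10a1. The median chain had a mean of 4.50 CPM, against 13.3 CPM for the median of the 19145 genes tested. Together the chains summed to 334 to 394 CPM in collagen domain libraries and 270 to 390 CPM in PBS libraries. Per kilobase of exon the order of the leading chains differs from the order in CPM. Col6a1 led with 9.12 ± 2.02 RPKM (CPM per kilobase of exon; SD over 12 libraries), ahead of Col25a1 with 4.69 ± 0.447, Col4a2 with 3.73 ± 0.626, Col9a3 with 3.65 ± 0.874, Col4a1 with 2.98 ± 0.380 and Col9a2 with 2.74 ± 0.553 RPKM. Col4a2 and Col9a3, and likewise Col4a1 and Col9a2, lay closer than the SD of either. Col4a3, the last in this order, had 0.0589 ± 0.0191 RPKM. All levels that follow are CPM, which compare 1 gene across libraries, and an order of chains by CPM takes no account of exon length.

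**Figure D1:**
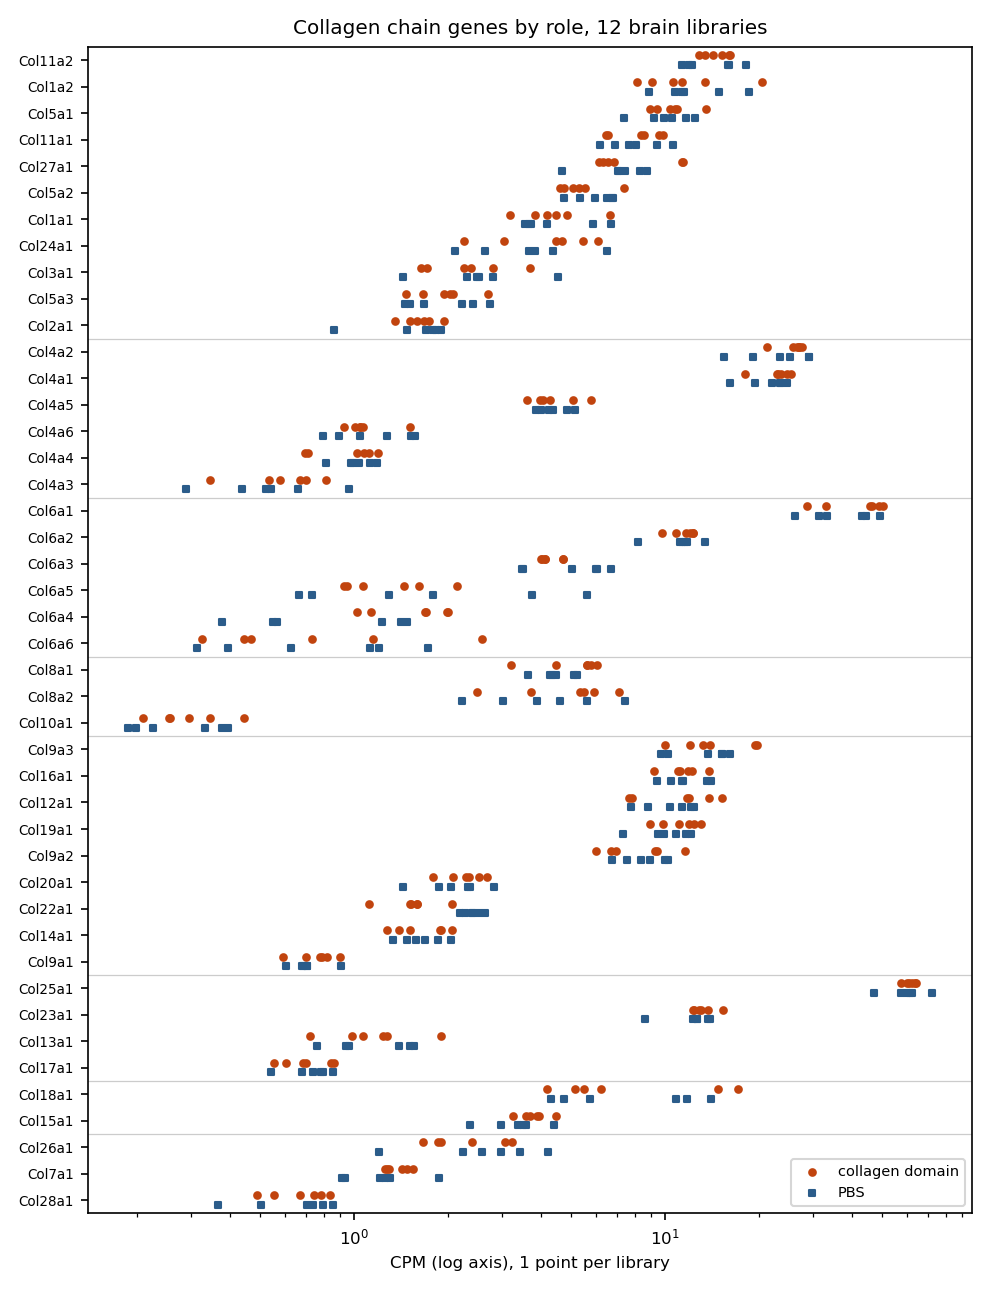
CPM of the 44 collagen chain genes on a log axis, 1 point per library, with collagen domain libraries as circles above PBS libraries as squares and grey lines between roles. Col25a1 and Col6a1 lie highest, Col10a1 lowest, and Col22a1 is the chain whose 2 treatment labels do not overlap.

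Of the 11 fibrillar chains, all had a mean of 1 CPM or more. Col1a2, which with Col1a1 forms type I collagen of connective tissue, had 8.11, 20.4 and 13.4 CPM in collagen domain females, 9.06, 10.6 and 11.4 CPM in collagen domain males, 11.5, 18.6 and 14.9 CPM in PBS females and 11.3, 8.87 and 10.8 CPM in PBS males. The highest library, collagen domain female 2, had 2.52 times the level of the lowest, collagen domain female 1, and the treatment labels overlapped. Col1a1 ranged over 3.17 to 6.72 CPM and Col3a1, the chain of type III collagen in vessel walls and loose connective tissue, over 1.44 to 4.52 CPM, and both were highest in PBS female 2. Col11a2, a minor fibrillar chain best known from cartilage, had 12.8, 16.1 and 14.3 CPM in collagen domain females, 16.1, 15.2 and 13.4 CPM in collagen domain males, 11.3, 16.1 and 18.3 CPM in PBS females and 11.9, 15.9 and 12.2 CPM in PBS males. Its spread was narrower, with PBS female 3 highest and PBS female 1 lowest. Col5a1 (10.4 ± 1.64 CPM, SD, n = 12), Col11a1 (8.18 ± 1.47 CPM), Col27a1 (7.66 ± 2.02 CPM) and Col5a2 (5.72 ± 0.940 CPM) followed, where type V chains help nucleate fibrils. Col5a3 (1.99 ± 0.455 CPM) and Col2a1 (1.62 ± 0.296 CPM), the cartilage type II chain, were lowest in this class. Col24a1, a fibrillar chain first described in bone and cornea, had 6.07, 3.04 and 4.45 CPM in collagen domain females, 4.67, 2.26 and 5.43 CPM in collagen domain males, 3.82, 2.64 and 3.66 CPM in PBS females and 4.37, 6.52 and 2.12 CPM in PBS males. It was low in each library with high hindbrain genes.

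Type IV genes fell into 1 abundant pair, 1 chain at about 4 CPM and 3 scarce chains. Col4a1 and Col4a2 encode the chains of the common basement membrane network, also around brain vessels, and their mutations cause small vessel disease of the brain. Col4a2 had 26.9, 25.8 and 27.0 CPM in collagen domain females, 27.5, 21.3 and 26.5 CPM in collagen domain males, 19.2, 23.4 and 29.0 CPM in PBS females and 25.2, 29.1 and 15.5 CPM in PBS males. Col4a1 had 24.7, 22.8 and 23.6 CPM in collagen domain females, 25.3, 18.1 and 23.2 CPM in collagen domain males, 19.4, 22.0 and 23.4 CPM in PBS females and 23.5, 24.6 and 16.2 CPM in PBS males. For both genes PBS male 3 was lowest, PBS female 1 or collagen domain male 2 came next, and the remaining libraries lay close together. Col4a5, an X-linked chain of the kidney filter and of smooth muscle, had 4.42 ± 0.636 CPM and its head-to-head neighbour Col4a6 1.14 ± 0.263 CPM. Col4a4 (0.997 ± 0.172 CPM) and Col4a3 (0.587 ± 0.190 CPM), which pair with Col4a5 in kidney, were near or below 1 CPM. In the exon annotation 5.65% of Col4a3 lies under another gene, and reads carried no strand, so its low level is the less certain.

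Type VI genes split by family branch. Col6a1 and Col6a2, chains of the common type VI filament, stood at 39.9 ± 8.85 CPM and 11.4 ± 1.33 CPM (SD, n = 12), and Col6a3, their long partner, at 4.70 ± 1.05 CPM. Col6a1 had 45.6, 33.0 and 48.9 CPM in collagen domain females, 50.4, 28.5 and 46.2 CPM in collagen domain males, 42.9, 31.2 and 33.1 CPM in PBS females and 44.4, 48.9 and 26.2 CPM in PBS males. Its 5 lowest libraries were the 5 with high hindbrain genes. Col6a2 had 10.9, 12.05 and 11.7 CPM in collagen domain females, 12.3, 9.78 and 12.3 CPM in collagen domain males, 11.6, 11.3 and 11.8 CPM in PBS females and 11.2, 13.4 and 8.21 CPM in PBS males. It varied less, and PBS male 3 alone lay below 9 CPM. Col6a3 had 4.10, 4.71 and 4.12 CPM in collagen domain females, 4.69, 3.98 and 4.03 CPM in collagen domain males, 3.51, 5.99 and 6.04 CPM in PBS females and 6.69, 5.04 and 3.48 CPM in PBS males, with 4 PBS libraries above all 6 collagen domain libraries and 2 below them.

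Col6a4, Col6a5 and Col6a6, which neighbour one another on chromosome 9 and encode chains that resemble the one of Col6a3, were the most variable branch. The SD of log2 CPM over 12 libraries was 0.938 for Col6a6, 0.897 for Col6a5 and 0.755 for Col6a4, which are ranks 1, 2 and 4 of the 44 chains. Col6a5 had 0.927, 0.950 and 1.07 CPM in collagen domain females, 2.14, 1.44 and 1.62 CPM in collagen domain males, 1.29, 0.666 and 3.73 CPM in PBS females and 1.79, 5.62 and 0.732 CPM in PBS males. PBS male 2 and PBS female 3 stood well above the other 10 libraries. Col6a6 had 0.324, 0.734 and 0.442 CPM in collagen domain females, 1.15, 2.59 and 0.465 CPM in collagen domain males, 0.626, 0.312 and 1.74 CPM in PBS females and 1.13, 1.20 and 0.392 CPM in PBS males. Here collagen domain male 2 was highest and PBS female 3 next. Col6a4 had 1.99, 2.01 and 1.70 CPM in collagen domain females, 1.69, 1.02 and 1.13 CPM in collagen domain males, 0.564, 1.42 and 0.547 CPM in PBS females and 1.48, 0.377 and 1.23 CPM in PBS males. PBS female 1, PBS female 3 and PBS male 2 had under 0.6 CPM and all 9 others above 1 CPM, so the libraries highest for Col6a5 were among the lowest for Col6a4. These are related sequences at low counts (14 to 239 reads for the 3 genes), and whether reads shared among paralogs were split is not stated in the sources used here.

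Among the fibril-associated chains, Col9a3 led. Type IX chains coat cartilage fibrils, and Col9a3 RNA has also been reported in choroid plexus. Col9a3 had 12.1, 19.8 and 13.3 CPM in collagen domain females, 10.02, 19.5 and 14.0 CPM in collagen domain males, 9.71, 16.2 and 15.3 CPM in PBS females and 10.2, 15.2 and 13.7 CPM in PBS males. Collagen domain female 2 and male 2 were highest and PBS female 1 was lowest, and 6.07% of its annotated exon length lies under Tcfl5. Its partners Col9a2 and Col9a1 stood at 8.48 ± 1.71 CPM and 0.739 ± 0.102 CPM. Col16a1 had 12.2, 13.8 and 9.22 CPM in collagen domain females, 11.001, 11.2 and 11.9 CPM in collagen domain males, 10.5, 11.4 and 14.1 CPM in PBS females and 11.3, 13.6 and 9.44 CPM in PBS males, within a narrow range. Col12a1, a fibril-associated chain of dense connective tissue, had 11.8, 15.2 and 13.8 CPM in collagen domain females, 7.83, 7.64 and 11.9 CPM in collagen domain males, 12.4, 12.1 and 8.85 CPM in PBS females and 10.4, 11.4 and 7.79 CPM in PBS males. It was low in collagen domain male 1 and male 2 and in PBS male 3. Col19a1, made by interneurons in mouse brain and needed there for inhibitory synapses, had 13.1, 9.87 and 11.1 CPM in collagen domain females, 12.4, 8.97 and 11.9 CPM in collagen domain males, 9.52, 9.93 and 10.8 CPM in PBS females and 12.1, 11.7 and 7.32 CPM in PBS males, with PBS male 3 lowest. Col20a1 (2.21 ± 0.389 CPM) and Col14a1 (1.67 ± 0.279 CPM) were scarcer, and Col22a1, a chain of tissue junctions such as that of muscle and tendon, is given below.

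The transmembrane chain Col25a1 was the chain gene with the most reads. It is expressed by neurons, and its product is the precursor of a collagen-like component of amyloid plaques in Alzheimer's disease. Col25a1 had 60.8, 62.1 and 60.1 CPM in collagen domain females, 63.4, 57.2 and 64.2 CPM in collagen domain males, 57.2, 60.2 and 62.4 CPM in PBS females and 61.3, 72.1 and 46.9 CPM in PBS males. It was also the steadiest, with an SD of log2 CPM of 0.143, the lowest of all 44, PBS male 3 at the bottom and PBS male 2 at the top. Col23a1 had 12.4, 15.3 and 13.04 CPM in collagen domain females, 13.7, 12.3 and 12.9 CPM in collagen domain males, 12.7, 12.3 and 13.7 CPM in PBS females and 12.7, 13.9 and 8.604 CPM in PBS males, again with PBS male 3 lowest. Col13a1, known from the neuromuscular junction, and Col17a1, known from hemidesmosomes of skin, stood at 1.19 ± 0.353 CPM and 0.720 ± 0.112 CPM.

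Both multiplexins, basement membrane collagens whose ends can be cut off as signalling fragments, were expressed. Col18a1, the source of endostatin and in mouse also a product of cerebellar Purkinje cells, had 4.17, 17.2 and 5.12 CPM in collagen domain females, 5.48, 14.8 and 6.23 CPM in collagen domain males, 4.30, 14.0 and 10.8 CPM in PBS females and 4.75, 5.74 and 11.8 CPM in PBS males. The libraries fell into a low and a high set with a gap between 6.23 and 10.8 CPM. Col15a1, its relative in vessel walls, had 3.24, 3.93 and 3.86 CPM in collagen domain females, 4.47, 3.56 and 3.68 CPM in collagen domain males, 2.96, 3.50 and 4.39 CPM in PBS females and 3.38, 3.58 and 2.35 CPM in PBS males, with PBS male 3 lowest. The short network chains Col8a1 and Col8a2, known from the cornea and from vessel walls, stood at 4.81 ± 0.894 CPM and 4.73 ± 1.71 CPM. Col8a2 had 3.71, 7.12 and 5.49 CPM in collagen domain females, 2.48, 5.89 and 5.34 CPM in collagen domain males, 3.01, 4.58 and 7.41 CPM in PBS females and 3.89, 5.601 and 2.22 CPM in PBS males. It was low in PBS male 3 and collagen domain male 1 and high in PBS female 3 and collagen domain female 2. Col10a1, the chain of growth plate cartilage, had the lowest mean CPM of all at 0.293 ± 0.0840 CPM, while per kilobase of exon Col4a3 was last. Col26a1 (2.56 ± 0.849 CPM), Col7a1 of anchoring fibrils in skin (1.32 ± 0.260 CPM) and Col28a1, known from peripheral nerve (0.670 ± 0.156 CPM), complete the family.

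The chains varied more between libraries than most genes. The median chain had an SD of log2 CPM of 0.307 over the 12 libraries, against 0.185 for all 19145 genes tested, and 42 of 44 chains lay above that second value. The 6 chains of largest SD were Col6a6, Col6a5, Col18a1 (SD 0.761), Col6a4, Col8a2 (SD 0.564) and Col24a1 (SD 0.529). Their farthest libraries from the median were collagen domain male 2 for Col6a6, PBS male 2 for Col6a5 and Col6a4, collagen domain female 2 for Col18a1 and PBS male 3 for Col8a2 and Col24a1. As the chains are less abundant than the median gene and SD depends on read number, the 2 medians are a description. PBS male 3 was the lowest library for 19 of 44 chains (43.2%) and for 18.3% of all genes tested, and the highest for 0 chains and 17.3% of genes. That library also had the fewest counted reads (39272127) and the fewest genes detected (24489) of the 12, and the part of this was not tested. Collagen domain female 2 was the highest for 10 chains and 13.8% of genes and the lowest for 0 chains and 13.7% of genes. PBS male 2 was the highest for 9 chains and 5.78% of genes and the lowest for 3 chains and 5.54% of genes. The chain total without PBS male 3 began at 321 CPM, in PBS female 1.

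**Figure D2:**
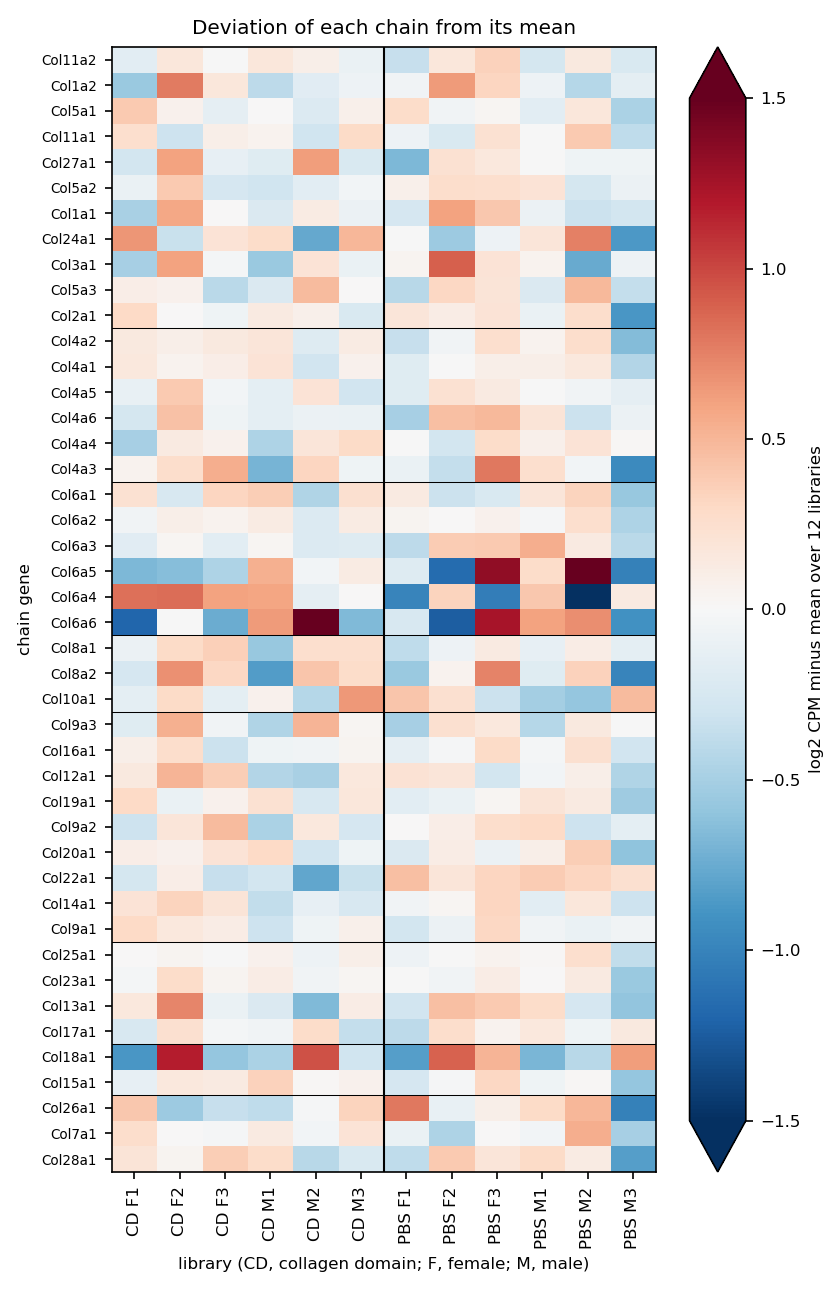
Deviation of log2 CPM of each chain from its own mean over 12 libraries (colour, limited to 1.5 either way), chains in rows by role and libraries in columns, collagen domain left of the black line and PBS right of it. The PBS male 3 column is mostly blue, and the rows of Col6a5, Col6a4, Col6a6 and Col18a1 hold the strongest colours.

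Relations between chains and marker lists asked whether chains of 1 kind moved with each other or with the cells known to make them. In all 8 relations were computed on log2(CPM + 1) over the 12 libraries, with two-sided permutation p-values from 100000 resamples adjusted by Benjamini-Hochberg over the 8. Chains of fibroblast collagen followed the fibroblast and meningeal list (20 genes, no collagen among them). The mean of Col1a1, Col1a2 and Col3a1 against that list gave Pearson's r = 0.92 (permutation p = 2e-05, adjusted p = 0.00016) and Spearman's rho = 0.88 (permutation p = 0.00037, adjusted p = 0.00296). Within the 6 collagen domain libraries r was 0.96, within the 6 PBS libraries 0.91 and within the 7 libraries with low hindbrain genes 0.83. Without collagen domain female 2 and male 1, the libraries farthest from the median of the list, r was 0.90. Col1a2 followed Col1a1, with Pearson's r = 0.93 (permutation p = 5e-05, adjusted p = 0.0002) and Spearman's rho = 0.81 (permutation p = 0.00221, adjusted p = 0.00589). Within collagen domain libraries, PBS libraries and the 7 libraries with low hindbrain genes r was 0.93, 0.95 and 0.88, and it was 0.82 without collagen domain female 2 and PBS female 2.

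The back-to-back pair Col4a1 and Col4a2 went together. Col4a2 against Col4a1 gave Pearson's r = 0.94 (permutation p = 0.00013, adjusted p = 0.000347) and Spearman's rho = 0.84 (permutation p = 0.00112, adjusted p = 0.00448), with r at 0.98 within collagen domain libraries, 0.97 within PBS libraries, 0.95 within the 7 libraries with low hindbrain genes and 0.90 without collagen domain male 2 and PBS male 3. No relation of their mean to the endothelial list (12 genes) was detected, at Pearson's r = -0.048 (permutation p = 0.886, adjusted p = 0.913) and Spearman's rho = -0.24 (permutation p = 0.444, adjusted p = 0.592). The same held for the mural list (10 genes of pericytes and smooth muscle), at Pearson's r = 0.40 (permutation p = 0.205, adjusted p = 0.273) and Spearman's rho = 0.17 (permutation p = 0.604, adjusted p = 0.69). Within collagen domain libraries, PBS libraries and the 7 libraries with low hindbrain genes, r was -0.46, 0.06 and 0.049 for the endothelial list and 0.29, 0.45 and 0.18 for the mural list. Without the 2 libraries farthest from the median of each list, r was 0.25 and 0.28. In the 5 libraries with high hindbrain genes the mean log2(CPM + 1) of the pair was 4.66 and 4.37 in collagen domain female 2 and male 2 and 4.57, 4.76 and 4.07 in PBS female 2, female 3 and male 3. That of the mural list was 3.35 and 3.20 in collagen domain female 2 and male 2 and 3.39, 3.27 and 3.10 in PBS female 2, female 3 and male 3. Among these 5, both the pair and the list were lowest in PBS male 3 and next lowest in collagen domain male 2. Over all 12 libraries the mural list was lowest in collagen domain female 1, at 3.09 against 3.10 in PBS male 3. The endothelial list summed to 221 to 285 CPM in collagen domain libraries and 204 to 284 CPM in PBS libraries. In PBS male 3, where both chains were lowest, it stood at 245 CPM.

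Col9a3 followed the choroid plexus list (12 genes), with Pearson's r = 0.77 (permutation p = 0.00339, adjusted p = 0.00678) and Spearman's rho = 0.71 (permutation p = 0.0117, adjusted p = 0.0205). This relation rests on PBS female 1 and collagen domain male 1, the libraries poorest in choroid plexus genes, without which r was 0.58 (permutation p = 0.0833). Within collagen domain libraries r was 0.76, within PBS libraries 0.80 and within the 7 libraries with low hindbrain genes 0.92. Col6a2 followed Col6a1, neighbours on chromosome 10, with Pearson's r = 0.71 (permutation p = 0.00464, adjusted p = 0.00742) and Spearman's rho = 0.71 (permutation p = 0.0128, adjusted p = 0.0205). Without collagen domain male 2 and PBS male 3 r was 0.28 (permutation p = 0.448), so the value over all 12 depends on them. Both are among the 5 libraries with high hindbrain genes, where Col6a1 had 26.2 to 33.1 CPM, against 42.9 to 50.4 CPM in the other 7. Each of these r values thus mixes sets that differ in Col6a1. Within labels r was 0.63 in collagen domain and 0.78 in PBS libraries, and 0.60 in the 7 libraries with low hindbrain genes. Col5a2 against Col5a1 gave Pearson's r = 0.036 (permutation p = 0.913, adjusted p = 0.913) and Spearman's rho = 0.028 (permutation p = 0.938, adjusted p = 0.938). Within collagen domain libraries, PBS libraries and the 7 libraries with low hindbrain genes r was 0.23, -0.029 and -0.038, and 0.053 without collagen domain female 1 and PBS male 3. In the 5 libraries with high hindbrain genes Col5a1 had 10.8 and 8.92 CPM in collagen domain female 2 and male 2 and 9.95, 10.5 and 7.40 CPM in PBS female 2, female 3 and male 3. Col5a2 had 7.40 and 5.08 CPM in collagen domain female 2 and male 2 and 6.79, 6.75 and 5.34 CPM in PBS female 2, female 3 and male 3 there, and for both chains collagen domain female 2 and PBS female 2 and 3 lay above collagen domain male 2 and PBS male 3. No r is given over those 5 libraries, which are fewer than the 6 taken as the least for a correlation, so a value over all 12 says nothing of the order within them.

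**Figure D3:**
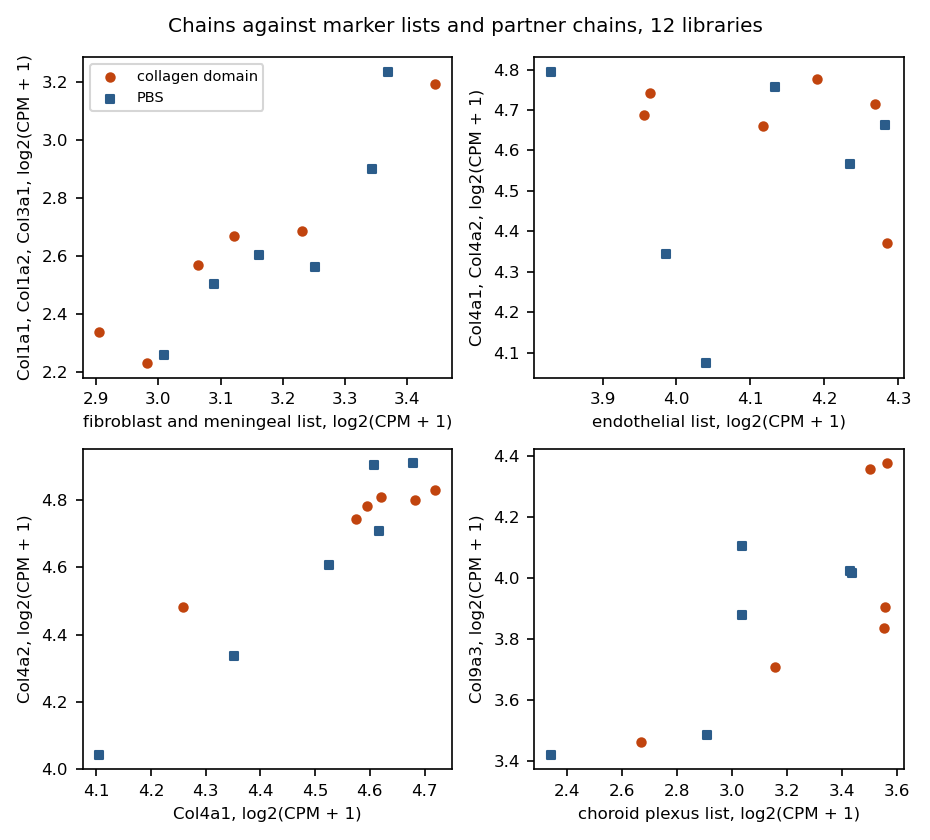
Each panel plots log2(CPM + 1) of chains against a marker list or a partner chain, 1 point per library, circles for collagen domain and squares for PBS. The fibroblast panel (r = 0.92) and the Col4a1 panel (r = 0.94) rise, the endothelial panel (r = -0.048) shows no trend, and the choroid plexus panel (r = 0.77) rises with scatter.

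Between the labelled treatments no chain passed the test. Treatment in both sexes was fitted over all 12 libraries with a term for sex, with collagen domain over PBS. By edgeR's quasi-likelihood test with Benjamini-Hochberg adjustment over 19145 genes, 0 of 44 chains were called, where 0% of all genes were. C1qtnf3 was thus not called either, and by its reads 4 libraries go against their treatment label. A count of 0 by these labels therefore cannot tell whether chains change with the construct. DESeq2 and limma-voom also called 0 chains. At an unadjusted p under 0.05 there were 2 chains, Col22a1 and Col6a4, against 1.85% of all genes. Log2 fold changes of the chains ranged from -0.80 to 0.75 with a median of 0.037 and 28 of 44 above 0, against a median of 0.00022 and 50.1% above 0 over all genes tested.

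Col22a1 was the chain of smallest p. It had 1.60, 2.07 and 1.51 CPM in collagen domain females, 1.60, 1.12 and 1.53 CPM in collagen domain males, 2.63, 2.19 and 2.41 CPM in PBS females and 2.52, 2.40 and 2.28 CPM in PBS males. Every collagen domain library lay below every PBS library, with 2.07 CPM as the highest collagen domain value (female 2) and 2.19 CPM as the lowest PBS value (female 2). It was the only 1 of 44 chains without overlap between the labels, and 0.0679% of all genes tested had none (0.0366% lower and 0.0313% higher with the collagen domain). Its mean was 1.57 ± 0.304 CPM in collagen domain libraries and 2.40 ± 0.160 CPM in PBS libraries (SD, n = 6 each). In edgeR's quasi-likelihood fit the log2 fold change stood at -0.62 (SE 0.126, unadjusted p = 0.000346, adjusted p = 1), so it failed the correction, and over its alternatives the adjusted p ran from 0.153 (DESeq2) to 1. As the labels did not overlap, any part of these libraries gives a difference below 0, and only its size can vary. The difference stood at -0.59 (SE 0.202) in the 7 libraries whose reads went against no label. It was -0.51 (SE 0.248) within the 5 libraries with high hindbrain genes and -0.70 (SE 0.131) within the other 7. Since 4 libraries carry C1qtnf3 reads that go against their treatment label, this is a difference by label. Collagen domain female 1 and female 3, with few C1qtnf3 reads, had 1.60 and 1.51 CPM of Col22a1. PBS female 2 and male 1, with many, had 2.19 and 2.52 CPM. As Col22a1 did not overlap between the labels, these 4 libraries had to lie on the side of their label. Their values are no separate test of label against C1qtnf3 reads. By sex label the difference in Col22a1 was -0.48 (SE 0.177, unadjusted p = 0.0199) in females and -0.76 (SE 0.179, unadjusted p = 0.00131) in males. In the 7 libraries against no label it was -0.30 (SE 0.323) in females and -0.81 (SE 0.268) in males. Among these 7 only 1 library is a collagen domain female (female 2), so the value in females has no replicate on that side, and its SE assumes that this library varies like those of the other groups.

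The 4 chains next in p were Col6a4, Col6a5, Col6a3 and Col15a1, each at an edgeR adjusted p of 1. Col6a4 averaged 1.59 ± 0.422 CPM in collagen domain libraries and 0.935 ± 0.493 CPM in PBS libraries (SD, n = 6 each), with a log2 fold change of 0.75 (SE 0.339, unadjusted p = 0.0459). The labels overlapped between 1.02 and 1.48 CPM, and in the 7 libraries against no label the value was 1.20 (SE 0.437). Col6a5 averaged 1.36 ± 0.472 CPM in collagen domain libraries and 2.31 ± 1.98 CPM in PBS libraries (SD, n = 6 each), at -0.80 (SE 0.472, unadjusted p = 0.117). PBS male 2 and PBS female 3 were its highest libraries, and the difference was -0.35 (SE 0.452) without PBS male 2, -0.38 (SE 0.428) without PBS female 3, -0.40 by limma-voom and -1.06 (SE 0.675) in the 7 libraries against no label. Col6a3 averaged 4.27 ± 0.333 CPM in collagen domain libraries and 5.12 ± 1.37 CPM in PBS libraries (SD, n = 6 each), at -0.26 (SE 0.164, unadjusted p = 0.134), and stood at -0.15 without PBS male 1 and at -0.0091 (SE 0.222) in the 7 libraries against no label. Col15a1 averaged 3.79 ± 0.412 CPM in collagen domain libraries and 3.36 ± 0.679 CPM in PBS libraries (SD, n = 6 each), at 0.17 (SE 0.137, unadjusted p = 0.226), and stood at 0.086 without PBS male 3, 0.11 without collagen domain male 1 and 0.27 without PBS female 3. In the 7 libraries against no label it was 0.28 (SE 0.220). Within the 5 libraries with high hindbrain genes and within the other 7, the values were 0.52 (SE 0.486) and 1.003 (SE 0.458) for Col6a4, -0.34 (SE 1.06) and -0.77 (SE 0.388) for Col6a5, -0.14 (SE 0.161) and -0.18 (SE 0.172) for Col6a3, and 0.22 (SE 0.200) and 0.24 (SE 0.127) for Col15a1. For Col6a5, Col6a3 and Col15a1 the gap between the means was under the SD of the PBS libraries but over that of the collagen domain libraries. For Col6a4 it was larger than the SD of either label.

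**Figure D4:**
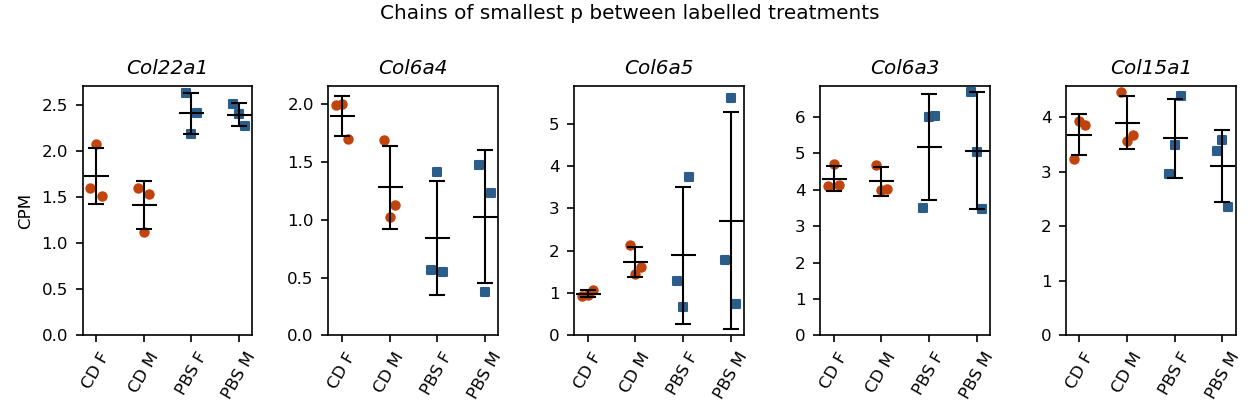
CPM of the 5 chains of smallest p between labelled treatments, 1 point per library, with the mean and SD of each group of 3 as black bars (CD, collagen domain; F, female; M, male) and axes from 0. Only in the Col22a1 panel do all 6 collagen domain points lie below all 6 PBS points, and the 2 high PBS points of Col6a5 are PBS female 3 and PBS male 2.

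Within females 0 of 44 chains were called by edgeR and 2 had an unadjusted p under 0.05 (1.46% of all genes), and within males 0 were called and 1 had (1.7% of all genes), while 0% of all genes were called in either sex. In females the chains of smallest p after Col22a1 were Col6a4 at 1.18 (SE 0.463, unadjusted p = 0.0272) and Col12a1 at 0.29 (SE 0.205, unadjusted p = 0.183). In the libraries against no label, where collagen domain female 2 stands alone against PBS female 1 and 3, these were 1.84 (SE 0.647) and 0.50 (SE 0.287), with SEs that take their spread from the other groups. Col6a4 stood at 1.77 (SE 0.470) without PBS female 2 and Col12a1 at 0.15 (SE 0.215) without PBS female 3. In males the chains next to Col22a1 were Col15a1 at 0.33 (SE 0.193, unadjusted p = 0.117) and Col6a3 at -0.26 (SE 0.244, unadjusted p = 0.306). In the libraries against no label these were 0.42 (SE 0.302) and 0.0069 (SE 0.315), Col15a1 stood at 0.17 (SE 0.183) without PBS male 3, and Col6a3 at -0.0091 (SE 0.243) without PBS male 1 and -0.47 (SE 0.224) without PBS male 3. The test of the difference in treatment fold change between the sex labels called 0 of 44 chains and 0% of genes, with 0 chains at an unadjusted p under 0.05 (1.37% of all genes). Its smallest p among chains belonged to Col6a6 at 1.45 (SE 1.002, unadjusted p = 0.175), Col12a1 at -0.40 (SE 0.291, unadjusted p = 0.198) and Col6a4 at -0.86 (SE 0.656, unadjusted p = 0.216), where a positive value means a larger collagen domain over PBS fold change in males. Without collagen domain male 2 or PBS female 3 the Col6a6 value was 0.66 (SE 0.959) or 0.52 (SE 0.941). That of Col12a1 was -0.64 (SE 0.257) without collagen domain male 3 and -0.26 (SE 0.289) without PBS female 3, and that of Col6a4 was -1.45 (SE 0.608) without PBS female 2 and -0.49 (SE 0.684) without PBS male 1. The libraries with high hindbrain genes hold 1 or 2 of each group, too few for such values of their own.

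Between the sex labels no chain passed either. By edgeR 0 of 44 chains and 0% of all genes were called, and 3 chains had an unadjusted p under 0.05 against 1.97% of all genes. Xist and Ddx3y were thus not called either, and by their reads 4 libraries go against the sex label. A count of 0 by these labels therefore cannot tell whether chains differ between the sexes. The log2 fold change of male over female was below 0 for 33 of 44 chains, with a median of -0.069 against -0.0013 over all genes. Those 3 were Col14a1, a fibril-associated chain of skin and tendon, at -0.34 (SE 0.122, unadjusted p = 0.0174), Col1a2 at -0.49 (SE 0.190, unadjusted p = 0.0243) and Col12a1 at -0.37 (SE 0.150, unadjusted p = 0.028). Col13a1 stood at -0.44 (SE 0.214, unadjusted p = 0.0603) and Col5a2 at -0.22 (SE 0.117, unadjusted p = 0.0892). In the 7 libraries against no label the values were -0.34 (SE 0.206) for Col14a1, -0.68 (SE 0.177) for Col1a2 and -0.49 (SE 0.222) for Col12a1. There Col13a1 stood at -0.77 (SE 0.267) and Col5a2 at -0.44 (SE 0.132). All 5 were below 0, but these 7 are part of the libraries by which the chains were picked, so this is no separate test. Col5a2 stood at -0.12 (SE 0.104) without collagen domain female 2. Within the 5 libraries with high hindbrain genes and within the other 7, Col14a1 stood at -0.46 (SE 0.199) and -0.27 (SE 0.182), Col12a1 at -0.66 (SE 0.198) and -0.30 (SE 0.146), Col1a2 at -0.76 (SE 0.141) and -0.12 (SE 0.181), Col13a1 at -1.17 (SE 0.227) and 0.085 (SE 0.215), and Col5a2 at -0.42 (SE 0.122) and -0.025 (SE 0.138), so the sign of Col13a1 turned in the other 7. Among the 5, only collagen domain male 2 and PBS male 3 are labelled male, and PBS female 2 goes against its sex label by reads. Among the other 7, collagen domain female 1 and male 3 and PBS male 1 go against theirs. These values and SEs thus rest on few libraries and compare labels. Col1a2 had 8.87 to 11.4 CPM (median 10.7) in libraries labelled male and 8.11 to 20.4 CPM (median 14.2) in those labelled female, and the sets overlapped. None of 44 chains separated the sex labels, against 0.104% of all genes (0.0418% higher and 0.0627% lower in males). The summed fibroblast and meningeal list (20 of 20 genes tested, none at 0) moved the same way, at 205 to 246 CPM (median 233) in libraries labelled male and 216 to 309 CPM (median 275) in those labelled female. With the mean of that list as a covariate Col1a2 stood at 0.13 (SE 0.116) and Col5a2 at 0.034 (SE 0.122), so both signs turned.

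The presence of hindbrain genes went with large shifts of a few chains. Of 44 chains, 3 (6.82%) did not overlap between the 5 libraries with high hindbrain genes and the other 7, Col18a1 upward and Col6a1 and Col24a1 downward, against 7.85% of all genes tested (5.06% upward and 2.79% downward). The share among chains is close to that of all genes. Col18a1 had 10.8 to 17.2 CPM in the 5 libraries with high hindbrain genes and 4.17 to 6.23 CPM in the other 7, a ratio of means of 2.69. Col6a1 had 26.2 to 33.1 CPM in the 5 libraries with high hindbrain genes and 42.9 to 50.4 CPM in the other 7, a ratio of 0.650, and Col24a1 had 2.12 to 3.66 CPM in the 5 libraries with high hindbrain genes and 3.82 to 6.52 CPM in the other 7, a ratio of 0.544. PBS male 1, whose hindbrain list was the highest of those 7 at 22.0 CPM, had 4.75 CPM of Col18a1, inside the range of the low libraries. These sets were defined from the libraries' own hindbrain genes and no test was made. Over all 44 chains the median difference was 0.067 on the log2 scale, against -0.0014 over all genes. Of 15 other marker lists, the sums of 2 did not overlap between the sets. The striatal neuron list (6 genes) stood at 330 to 445 CPM in the 5 and 462 to 543 CPM in the 7, and the oligodendrocyte list (6 genes) at 6228 to 7106 CPM in the 5 and 4953 to 5666 CPM in the 7. The cortical excitatory neuron list overlapped, at 1966 to 2643 CPM in the 5 and 2435 to 3003 CPM in the 7. The part of these lists in these shifts was not tested.

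**Figure D5:**
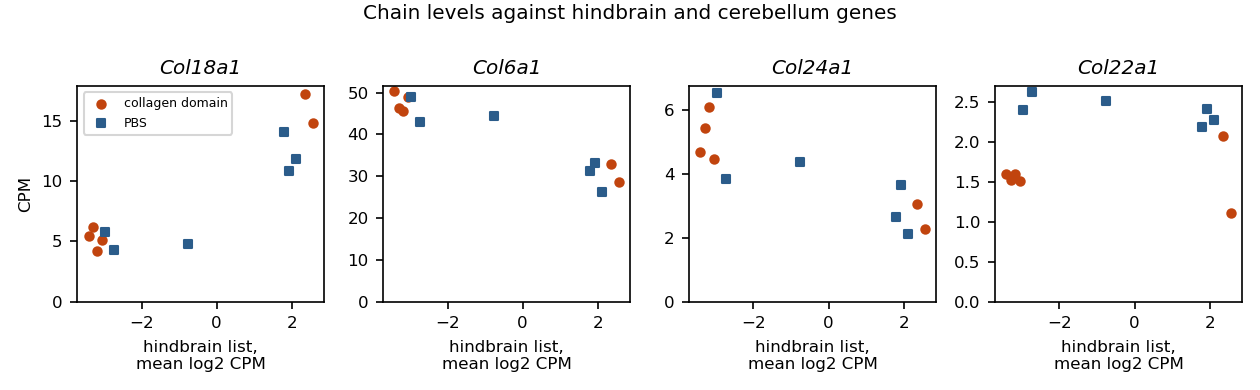
CPM of 4 chains against the mean log2 CPM of 14 hindbrain and cerebellum genes, 1 point per library, circles for collagen domain and squares for PBS. Col18a1 is high and Col6a1 and Col24a1 are low in the 5 libraries at the right. Col22a1 separates the labels on both sides, as it must where the labels do not overlap over all libraries.

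Genes that fold, process, bind and degrade collagen did not pass between the treatment labels either (edgeR, adjusted p = 1 for all named here, n = 6 libraries per label). Of the hydroxylation, glycosylation and folding enzymes, 0 of 18 passed in either direction and 14 of 18 had a log2 fold change above 0, with a median of 0.062. The smallest p belonged to P3h1 at 0.15 (SE 0.0768, 6.203 ± 0.454 CPM in collagen domain libraries and 5.59 ± 0.414 CPM in PBS libraries), a prolyl 3-hydroxylase, and P4ha2 at 0.14 (SE 0.0846, 9.64 ± 0.909 CPM in collagen domain libraries and 8.75 ± 0.790 CPM in PBS libraries), a catalytic subunit of prolyl 4-hydroxylase. Of the processing and crosslinking enzymes 0 of 13 passed, with a median of 0.064, and Loxl1, a crosslinking oxidase, and Tll2, a procollagen C-proteinase relative, stood at 0.29 (SE 0.149) and 0.30 (SE 0.174). Of 10 collagen receptors tested (11 listed) 0 passed, with a median of 0.046. Itga10, an integrin subunit that binds collagen, had the smallest p of all 5 lists, with a value of 0.41 (SE 0.121, 1.51 ± 0.183 CPM in collagen domain libraries and 1.14 ± 0.123 CPM in PBS libraries) and an unadjusted p of 0.00553. Itga11, its relative, stood at -0.19 (SE 0.159). Among basement membrane partners 0 of 12 passed, with a median of 0.051, and the laminin genes Lama5 and Lama4 stood at 0.24 (SE 0.122) and 0.14 (SE 0.0931). Of 7 collagen-degrading enzymes tested (9 listed) 0 passed, with a median of 0.062, and the metalloproteinase genes Mmp9 and Mmp14 stood at 0.35 (SE 0.202) and 0.25 (SE 0.162).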

How the data were processed

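Poly(A) RNA was made into libraries with the TruSeq RNA version 2 kit and read as pairs of 75 bp, per the labels' protocols. The deposited table gives read counts as whole numbers for each gene ID of Ensembl, without normalisation. STAR, DESeq2 and GRCm39 are named per the submitters' processing notes, and the counting tool, strand setting and annotation release are not given in the sources used here. The labels give each library's name, which is the header of its column. Symbols and exon lengths came from GENCODE M21 (GRCm38), where 42462 of 43629 IDs matched and the 1167 others held 0.144% of reads. Same-group pairs of libraries differed by chi-square values of 11.1 to 94.6 per degree of freedom, so none was counted as a repeat.

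The test was that of edgeR 4.0.16 in R 4.3.3 (filterByExpr on the 4 groups, TMM, robust quasi-likelihood F-test, two-sided, adjusted p under 0.05). Treatment in both sexes and male over female came from a fit of sex and treatment, the other contrasts from a fit of the 4 groups, all on 12 libraries. SDs of log2 CPM use a prior count of 2. Alternatives were DESeq2 1.42.0, voom in limma 3.58.1, other factors and filters, covariates, a replicate block and left-out libraries. The fit was tested on simulated data. Correlations and figures were made in Python 3.11.15 with scipy 1.17.1 and matplotlib 3.10.9. A library went against its treatment label at fewer than 1000 C1qtnf3 reads with collagen domain, or 1000 or more with PBS. For the sex label, libraries with more Xist than Ddx3y reads were read as female. Libraries with high hindbrain genes lie above the widest gap in the mean log2 CPM of that list. The members, lists and tests were chosen with earlier results of these data known. The chains named are those at a mean of 1 CPM or more, the 5 or 3 of smallest p per contrast and the 6 of largest SD, with every library's value for the 12 of highest mean, the 5 of smallest p for treatment in both sexes and the 6 most variable. Values for other chains are given so that all 44 are accounted for. Same-numbered libraries of the same sex did not deviate together in every pair, so the numbers were not taken to pair them. Counting error alone is not shown as an interval.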

Additional observations from a re-analysis of the deposited data

Results flagged for a closer look

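In the 21 chains whose values are given for every library, the lowest and highest of the 6 libraries of each treatment label were set against Dixon's critical value for a group of 6, which makes 42 groups. Chance alone passes this limit in about 1 in 20 groups, and 4 values passed it. The groups are not independent, as Col4a1 and Col4a2 went together within collagen domain libraries (r = 0.98). Col4a2 at 21.3 CPM and Col4a1 at 18.1 CPM, the head-to-head basement membrane pair, lay far below the other collagen domain libraries in collagen domain male 2. Col23a1, a transmembrane chain, was far below the other PBS libraries in PBS male 3, at 8.604 CPM. Col6a2, a type VI chain, was low in the same library at 8.21 CPM. Both libraries are among the 5 with high hindbrain genes, and PBS male 3 had the lowest summed level of all chains and the fewest counted reads. The part of any of these in the flagged values was not tested.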

How the results depend on the processing

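The count of chains called was 0 in every comparison under every alternative run. Over all genes the count of 0 became 2 for treatment in both sexes without the 5 libraries against either label and 2 without the 4 against the treatment label, and likewise 1 and 1 in females, where 1 collagen domain library is left and is assumed to vary like the other groups, and 1 and 1 in males. DESeq2 called 3 genes in males, 1 for the interaction and 8 for male over female. For male over female, 8 and 1 were called without those 5 and those 4 libraries, and 1 and 4 within the libraries with high and with low hindbrain genes, a split chosen after seeing the data. Leaving out 1 library gave 0 to 1 genes in males (1 without collagen domain female 3) and 0 to 5 for male over female (5 without PBS male 3). Fold changes that turned sign were Col6a3 in males at 0.0069 without the 5 libraries, Col1a2 at 0.13 and Col5a2 at 0.034 for male over female with the fibroblast list as covariate, and Col13a1 at 0.085 for male over female within the 7 libraries with low hindbrain genes. With 1 library left out, r ran from -0.23 to 0.15 for Col4a1 and Col4a2 against the endothelial list, from -0.052 to 0.13 for Col5a2 against Col5a1 and from 0.55 to 0.77 for Col6a2 against Col6a1, which lost its call without PBS male 3 (adjusted p = 0.12, permutation). The cause was not tested in any of these. Alternatives were run for 19 fold changes of 11 chains, and apart from the 4 that turned sign these kept their direction and their side of the threshold.

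With the replicate number as a block (replicate block), 0 genes and 0 chains were called in every comparison. Deviations of same-numbered libraries of the same sex had correlations from -0.38 to 0.44, not all above 0.1, so the numbers were not taken to pair them.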
